A study of Mus musculus with 4 samples.

Results

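Genes of the Dlx loci and of GABA production were followed in the dorsal and medial palliums of E11.5 mouse embryos, measured by Nanopore long-read RNA sequencing. The members are 8 genes picked by symbol from the table of raw counts: Dlx1, Dlx2 and Dlx5, the antisense RNAs Dlx1as and Dlx6os1, the GABA-producing enzymes Gad1 and Gad2, and Gsx2. Of the 8, Gad1 was not analysed here, and Dlx6os1 held 2 rows under separate identifiers, so that 7 genes in 8 rows of a table of 16449 rows are described. The series comprised 2 libraries labelled wild type (WT) and 2 labelled Tut1 knockout. In the latter, a floxed Tut1 allele with loxP sites around exon 2 was recombined by Cre from the Emx1 locus, which is active in dorsal forebrain progenitors and their progeny. The genotypes listed for the libraries have the floxed allele on both chromosomes in either group, so that WT meant absence of Cre. How many embryos made up a library was not given. The labels do not say whether the samples of a group were separate embryos, and p-values below then measure only the spread between these samples. In WT the libraries differed in sex and so did not hold the same RNA, whereas in the knockout-labelled pair the spread may be technical.

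Dlx genes encode homeodomain transcription factors that stand in adjacent pairs, Dlx1 beside Dlx2 and Dlx5 beside Dlx6, each pair with antisense transcripts. In the embryonic forebrain they are known from the ganglionic eminences of the ventral telencephalon (subpallium) and from the prethalamus, where they act in the formation of GABAergic neurons. Gsx2 acts upstream of them in progenitors of the lateral ganglionic eminence, and Gad1 and Gad2 make GABA from glutamate. The pallium is known instead for making glutamatergic neurons, and GABAergic interneurons reach it by migration from the subpallium.

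Dlx1 and Dlx1as, which carried most of the member counts, lie on opposite strands of chromosome 2 (GRCm38; gene models of GENCODE M21). Dlx1 spans 71528113 to 71533981 on the plus strand and Dlx1as spans 71516454 to 71537891 on the minus strand, so that the antisense gene encloses Dlx1. Their exons share 335 bases, 71532784 to 71533118, in the 3′ untranslated part of Dlx1. The shared stretch made up 6.2% of the exonic bases of Dlx1 and 20.6% of those of Dlx1as, and it belonged to 1 of the 4 annotated Dlx1as transcripts. Whether the authors' counting used strand is not given in the sources used here, so reads confined to this stretch could not be assigned to either gene. To show how distinct the genes are outside it, an exon with no base in the other gene's exons is printed for each, 5′ to 3′ on its own strand. The Dlx1 exon is the coding exon 2 of Dlx1-201 (chr2:71530957-71531156, plus strand), present in 3 of 6 transcripts, which encodes the beginning of the homeodomain. The Dlx1as exon is the first of Dlx1as-204 (chr2:71537580-71537810, minus strand), present in 2 of 4 transcripts. No base is capitalised in either.
Dlx1 exon 2: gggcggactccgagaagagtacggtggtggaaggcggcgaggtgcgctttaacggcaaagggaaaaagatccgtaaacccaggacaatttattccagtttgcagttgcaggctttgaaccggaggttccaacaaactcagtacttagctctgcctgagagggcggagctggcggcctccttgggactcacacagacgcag
Dlx1as exon 1: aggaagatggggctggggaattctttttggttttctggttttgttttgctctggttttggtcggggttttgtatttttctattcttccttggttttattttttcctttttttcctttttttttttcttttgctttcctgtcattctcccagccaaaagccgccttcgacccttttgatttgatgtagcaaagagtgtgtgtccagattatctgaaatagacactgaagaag

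**Figure D1:**
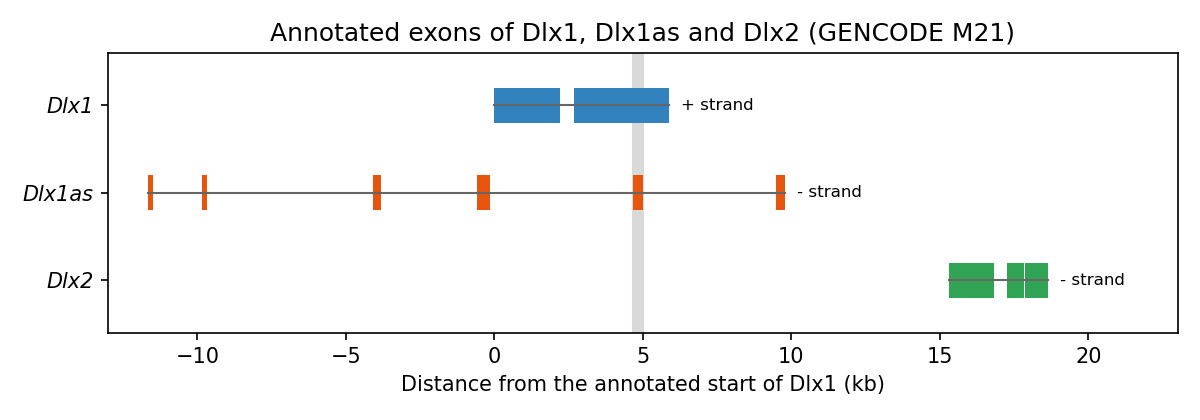
Annotated exons (boxes) and gene spans (lines) of Dlx1, Dlx1as and Dlx2, drawn to scale against the distance from the annotated start of Dlx1 in kilobases. The grey band marks the 335 bases that exons of Dlx1 and Dlx1as share; all other Dlx1as exons lie outside the exons of Dlx1.

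Sequence upstream of the annotated starts is shown for 3 members that are counted together here, Dlx2, Gad2 and Dlx6os1. RefSeq promoter windows (GRCm38.p6) matched 6 of the 8 symbols, and the 250 bases before each start were searched on both strands for TAATTA, the core that homeodomain factors such as Dlx and Gsx2 bind, and for the E-boxes CAGCTG and CAGATG (or CATCTG on the other strand), which proneural factors bind. The first 2 of these motifs read the same on both strands, and overlapping matches were counted separately. Over all 32851 mouse promoters of this length, 4.8% held TAATTA, 13.0% held CAGCTG and 14.4% held CAGATG. The windows of Dlx1, Dlx2, Gad1 and Gsx2 held none of these letters. That of Gad2 held 1 CAGATG, which lay in exonic sequence, and the windows of Dlx6os1 held 2 and 1 TAATTA. Only bases outside annotated exons are printed, 5′ to 3′ on the strand of the gene, with TAATTA in capitals. The windows are Dlx2 (chr2:71546755-71547004, minus strand), Gad2 (chr2:22622077-22622204, plus strand) and an internal start of Dlx6os1 (chr6:6861684-6861933, minus strand).
Dlx2: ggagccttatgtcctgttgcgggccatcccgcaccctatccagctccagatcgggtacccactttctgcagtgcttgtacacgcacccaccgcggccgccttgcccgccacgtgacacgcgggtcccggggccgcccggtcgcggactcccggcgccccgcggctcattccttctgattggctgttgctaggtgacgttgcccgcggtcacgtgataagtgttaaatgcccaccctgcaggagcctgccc
Gad2: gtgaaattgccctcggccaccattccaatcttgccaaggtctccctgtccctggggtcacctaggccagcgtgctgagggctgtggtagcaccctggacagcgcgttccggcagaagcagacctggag
Dlx6os1: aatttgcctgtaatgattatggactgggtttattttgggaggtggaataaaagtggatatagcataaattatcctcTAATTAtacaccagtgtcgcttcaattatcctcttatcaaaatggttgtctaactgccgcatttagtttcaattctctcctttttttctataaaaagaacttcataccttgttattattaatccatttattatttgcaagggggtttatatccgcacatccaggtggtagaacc

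Depth limited every value. The 4 libraries held between 305642 and 397150 counts, and 0 counts of a gene allow up to 3, which is a level of 7.97 to 10.4 CPM (counts scaled to a common total with the TMM library factors). Intervals given here cover counting error only. Tut1 itself had 6 and 11 counts in WT, against 29 and 25 in the libraries labelled Tut1 knockout (log2 fold change 1.71 ± 0.40 SE, edgeR adjusted p = 0.0113), opposite to a loss, and gene-level counts do not resolve exon 2. The call was lost on omission of WT replicate 1 (log2 fold change 1.39) or of knockout-labelled replicate 1 (1.80) or 2 (1.63). It was also lost with DESeq2 at its default filter level (adjusted p = 0.44). Every direction below therefore follows the labels. WT replicate 1 was the only library with counts of Xist, the RNA of the inactive X chromosome (64 counts against 0, 0 and 0), so sex differed within the WT group. Of the defining pallial genes, Lhx2 had 348, 272, 106 and 106 counts in WT replicates 1 and 2 and knockout-labelled replicates 1 and 2. Emx1 had 6, 7, 1 and 2 in the same order, and Pax6 had 137, 119, 132 and 93. The Cre of the knockout-labelled libraries lies in the Emx1 locus, and its part in the Emx1 counts was not tested. Of 17 analysed pallial genes, 6 had both knockout-labelled libraries below both WT libraries and 4 had both above.

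The members were selected on their difference between genotypes in these same libraries, so their values are a description of these libraries and carry no test. Summed over the 8 rows, 0 and 20 member counts were found in WT replicates 1 and 2, against 90 and 47 in knockout-labelled replicates 1 and 2. The summed levels were 0, 55.9 (95% counting interval 34.1 to 86.3), 239 (192 to 294) and 163 CPM (120 to 217). Both knockout-labelled libraries exceeded both WT libraries, and their counting intervals did not reach that of WT replicate 2. Pooled within groups, the ratio was 7.10 (95% counting interval 4.42 to 12.0). This interval takes a single rate within each group and leaves out the spread between libraries, which was wide in WT (0 and 20 counts). The same applies to the pooled ratios of single members below.

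The WT libraries also stood apart from each other. WT replicate 1 held no count in any of the 8 rows, whereas WT replicate 2 held counts in 4 of them, Dlx1, Gad2, Gsx2 and the longer Dlx6os1. Against WT replicate 2 alone, the summed level was 4.28-fold higher in knockout-labelled replicate 1 and 2.92-fold higher in replicate 2. The ratio between the 2 knockout-labelled libraries was 1.47. The size of the difference between genotypes thus depended on which WT library was taken, 3.69-fold without WT replicate 1 and 22.7-fold without WT replicate 2. For the latter, WT replicate 1 was set to its floor of 3 counts, and counting error in the knockout-labelled pair was left out.

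**Figure D2:**
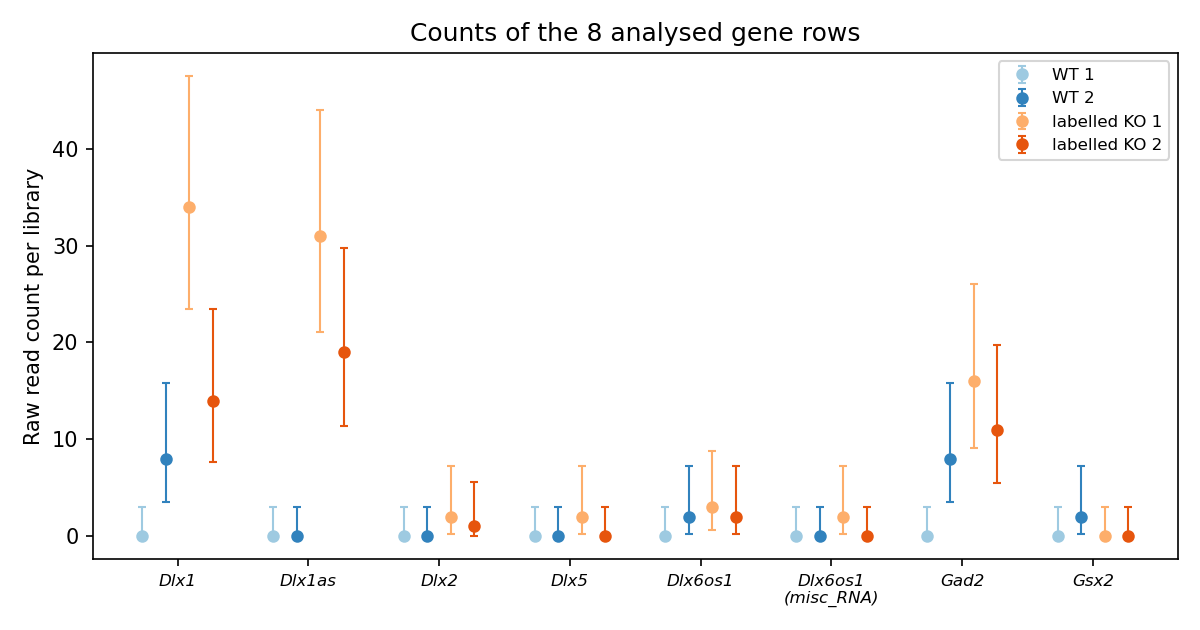
Raw read count of each of the 8 analysed rows in the 4 libraries (points) with exact 95% Poisson intervals (bars; for a count of 0, the bar ends at 3 counts). Dlx1, Dlx1as and Gad2 carry nearly all counts, with both knockout-labelled libraries (orange) above both WT libraries (blue), and WT replicate 1 is at 0 in every row.

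Of the 8 rows, 5 had both knockout-labelled libraries above both WT libraries (Dlx1, Dlx1as, Dlx2, the longer Dlx6os1 and Gad2), an order that 18.5% of all rows with any count showed. The reverse order, with both below, was seen for 0 of the 8 and for 16.1% of all rows. Only 3 rows were abundant enough to be tested, Dlx1, Dlx1as and Gad2. Of these, 2 (Dlx1 and Dlx1as) had an adjusted p below 0.05 in the edgeR fit, where 1.4% of 5878 tested genes were called higher and 2.06% were called in either direction. As the same contrast chose the members, these counts are given with their background and nothing is read from them. The independent filter of DESeq2 left all 3 rows without an adjusted p.

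Among the transcription factors, Dlx1 (ENSMUSG00000041911) had 0 and 8 counts in WT replicates 1 and 2 and 34 and 14 in knockout-labelled replicates 1 and 2. Its level was 11.2 ± 15.8 CPM in WT, against 69.5 ± 29.5 CPM in the knockout-labelled pair (mean ± SD, n = 2 each), and the pooled ratio was 6.22 (95% counting interval 2.92 to 15.2). The groups did not overlap, although the interval of knockout-labelled replicate 2 (26.7 to 81.6 CPM) overlapped that of WT replicate 2 (9.78 to 44.1 CPM). The level of Dlx1 in knockout-labelled replicates 1 and 2 was 4.04 and 2.18 times that of WT replicate 2.

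Dlx2 (ENSMUSG00000023391, chromosome 2, 71543408 to 71546754, minus strand), the partner of Dlx1 in the same cluster and often active in the same cells, had 0 and 0 counts in WT, against 2 and 1 in the knockout-labelled pair. Dlx5 (ENSMUSG00000029755, chromosome 6, 6877805 to 6882085, minus strand), of the other cluster, had 0 and 0 counts in WT, against 2 and 0 in the knockout-labelled pair. Both stayed at or under 3 counts in each group, so no fold is given. The knockout-labelled pair together held 48 counts of Dlx1, 3 of Dlx2 and 2 of Dlx5. The counts of the Dlx coding genes thus came mainly from Dlx1. Dlx6, Dlx3 and Dlx4 were not analysed here. Gsx2 (ENSMUSG00000035946, chromosome 5, 75075601 to 75077893, plus strand) was the only member with no count in the knockout-labelled pair, and its 2 counts were both in WT replicate 2. At this depth no difference in Gsx2 was detectable.

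Of the antisense RNAs, Dlx1as (ENSMUSG00000084946) had no count in WT (0 and 0) and 31 and 19 counts in knockout-labelled replicates 1 and 2. The levels in the latter were 82.4 CPM (95% counting interval 56.1 to 117) and 66.0 CPM (39.6 to 103), 74.2 ± 11.6 CPM on average (SD, n = 2). The level was 17.3 times that of WT with 3 counts over the WT group as the floor. This value leaves out counting error in the knockout-labelled pair, and the 95% counting interval of the ratio began at 13.5. With 1 WT library left out, the value of 17.3 became 8.98 (without replicate 1) or 8.28 (without replicate 2), as the 3 counts then stood for a single library. Set beside Dlx1, WT replicate 2 had 8 counts of Dlx1 and 0 of Dlx1as, knockout-labelled replicate 1 had 34 and 31, and knockout-labelled replicate 2 had 14 and 19. Exons of Metap1d, a gene whose span Dlx1as also overlaps on the opposite strand, shared no base with those of Dlx1as, and its counts were 13, 15, 10 and 12 in the 4 libraries, in the order used above.

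Dlx6os1 (Evf2), the antisense RNA of the Dlx5 and Dlx6 cluster, gave few counts. Its longer row (ENSMUSG00000090063, chromosome 6, 6820189 to 6871592, minus strand) had 0 and 2 counts in WT, against 3 and 2 in the knockout-labelled pair, a ratio of 2.59 whose counting interval of 0.424 to 27.2 spans 1. The other row, a misc_RNA of 146 bases (ENSMUSG00000098326, chromosome 6, 6871488 to 6871633), had 0 and 0 counts in WT, against 2 and 0 in the knockout-labelled pair. It shared 71.2% of its exonic bases with the longer one on the same strand, so reads could have gone to either row.

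Gad2 (ENSMUSG00000026787, chromosome 2, 22622205 to 22693874, plus strand), the smaller of the glutamate decarboxylases, had 0 and 8 counts in WT, against 16 and 11 in the knockout-labelled pair. Its level was 11.2 ± 15.8 CPM in WT, against 40.4 ± 3.05 CPM in the knockout-labelled pair (SD, n = 2 each), and the pooled ratio was 3.50 (95% counting interval 1.55 to 8.91). Against WT replicate 2, the level was 1.90 and 1.71 times as high, with overlapping counting intervals. Gad1, the other decarboxylase, lies on chromosome 2 (70553072 to 70602014, plus strand) and was not analysed here.

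Genes that act with these members were then compared from lists of the other Dlx genes (none of them analysed), of the GABA pathway and of the lateral and the medial ganglionic eminence. The members were left out of these lists, but the lists too were drawn up with earlier results of these data known, so their tests are not independent evidence. Of 37 genes in the 4 lists that were analysed, 14 were abundant enough to be tested. In the edgeR fit 2 of them rose in the libraries labelled Tut1 knockout and none fell. Over all tested genes, 1.4% were called higher and 2.06% in either direction, and these shares also stand beside the calls of each list below. Of the 14, 7 had an unadjusted edgeR p below 0.05, against 14.2% of all tested genes. The median log2 fold change of the 14 was 0.63, against -0.01 over all tested genes, and 11 of 14 were positive. Among the 34 genes with any count, 10 had both knockout-labelled libraries above both WT libraries, against 18.5% of all rows, and 2 had both below, against 16.1%.

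In the GABA pathway, Slc32a1, which loads GABA into synaptic vesicles, had 0 counts in all 4 libraries. Abat, which degrades GABA, had 4, 4, 10 and 3 counts, and Aldh9a1, of an alternative route to GABA, had 2, 3, 4 and 10. The transcripts of GABA vesicle loading were therefore under detection in every library, including those with counts of Gad2.

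Of 7 tested genes of the lateral ganglionic eminence and striatum, 1 rose and none fell (median log2 fold change 0.74). It was Pbx3, a homeodomain cofactor, with 2 and 2 counts in WT, against 14 and 15 in the knockout-labelled pair (log2 fold change 2.84 ± 0.65, edgeR adjusted p = 0.00926). The call was lost with any library left out (adjusted p = 0.0625 and 0.0657 without WT replicates 1 and 2, 0.209 and 0.246 without knockout-labelled replicates 1 and 2). Ebf1, a transcription factor of early striatal neurons, was close behind, with 5 and 9 counts against 18 and 20 (1.48 ± 0.45, edgeR adjusted p = 0.0732), and was singled out after its values were seen. So were Meis2, the most abundant of the list, with 73, 52, 54 and 60 counts, and Six3, with 5, 16, 9 and 9. Of the 7 tested genes, 5 had a positive log2 fold change. Isl1, which marks striatal and other neurons, had 0 and 5 counts in WT, against 4 and 4 in the knockout-labelled pair. Isl1 was thus also at 0 in WT replicate 1.

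Of 6 tested genes of the medial ganglionic eminence and of interneurons, 1 rose and none fell (median log2 fold change 0.71). It was Zeb2, a zinc-finger factor of migrating interneurons that pallial neurons also express, with 26 and 30 counts in WT, against 58 and 49 in the knockout-labelled pair (log2 fold change 0.99 ± 0.27, edgeR adjusted p = 0.0402). This call was lost likewise (adjusted p = 0.214 and 0.128 without WT replicates 1 and 2, 0.266 and 0.257 without knockout-labelled replicates 1 and 2). Lhx6, the factor of interneurons from the medial eminence, had 0, 1, 2 and 0 counts. Sox6, a factor of interneurons that pallial progenitors also express, lay the other way without passing the threshold, with 58 and 63 counts in WT, against 34 and 36 in the knockout-labelled pair (-0.73 ± 0.26, edgeR adjusted p = 0.149), and was singled out after its values were seen. Nkx2-1 was not analysed here.

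**Figure D3:**
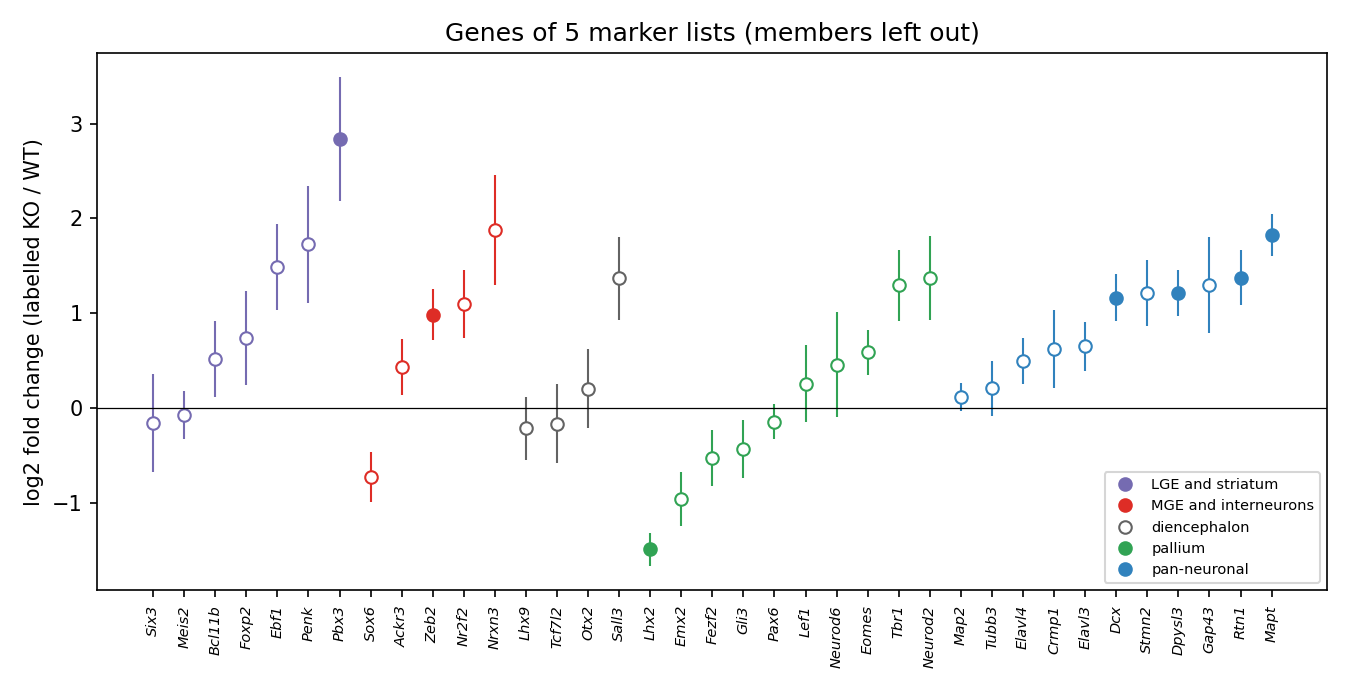
Log2 fold change, libraries labelled Tut1 knockout over WT, of genes of 5 marker lists that were abundant enough to be tested and are reported here (points, ± SE), with filled points for an edgeR adjusted p below 0.05. The ganglionic eminence lists hold 1 filled point each (Pbx3 and Zeb2), the pan-neuronal list lies above 0 throughout, and Lhx2 is the filled point below 0.

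Dlx genes and Gad2 are also transcribed in the prethalamus, and markers of the diencephalon were measured beside them. Of 10 analysed genes, 4 were tested and none was called (edgeR, DESeq2 and limma-voom; 1 had an unadjusted edgeR p below 0.05). The summed level was 173 and 291 CPM in WT, against 364 and 198 CPM in the knockout-labelled pair, so the groups overlapped. Otx2, a factor of diencephalon and midbrain, had 11 and 34 counts in WT, against 44 and 7 in the knockout-labelled pair (log2 fold change 0.21 ± 0.42, edgeR adjusted p = 0.892). Lhx9 had 26, 30, 34 and 13 counts and Tcf7l2 had 13, 17, 19 and 7. Gene by gene, 4 of the 10 had both knockout-labelled libraries above both WT libraries, against 18.5% of all rows, and 0 had both below. Among those 4, singled out after their values were seen, Sall3 had 5, 11, 19 and 21 counts (1.37 ± 0.44, edgeR adjusted p = 0.0942) and Irx3 had 0, 3, 8 and 5. WT replicate 1, which had no member count, had the lower level of the 2 WT libraries for 9 of these 10 genes. The same held for 9 of the 13 markers of other cells described below. It also held for 9 of 14 detected genes of the medial eminence list and 5 of 8 of the GABA pathway. For the pallial genes it held in 9 of 17, and for only 4 of 12 detected genes of the lateral eminence list and 5 of 15 pan-neuronal genes. The part of these differences in the member values was not tested.

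Of 10 tested pallial genes, 1 was called, Lhx2, the factor that maintains cortical identity, which fell (log2 fold change -1.49 ± 0.18, edgeR adjusted p = 6.48e-07) and had both knockout-labelled libraries below both WT libraries. On omission of knockout-labelled replicate 1 the adjusted p became 0.0539. The summed pallial level was 2175 and 1827 CPM in WT, against 1302 and 1518 CPM in the knockout-labelled pair, and the median log2 fold change was 0.06. Without Lhx2 the sums were 1121 and 1067 CPM in WT, against 1020 and 1150 CPM, and the groups overlapped. Single genes lay on either side: of the 17 analysed, 4 had both knockout-labelled libraries above both WT libraries and 6 had both below (18.5% and 16.1% of all rows), and 5 of the 10 tested had an unadjusted p below 0.05 (14.2% of all tested genes). Singled out after their values were seen, Tbr1, of early glutamatergic neurons, had 8 and 17 counts against 29 and 30 (1.29 ± 0.37, edgeR adjusted p = 0.0563), and Emx2, of pallial progenitors, had 48 and 62 against 23 and 31 (-0.96 ± 0.28, edgeR adjusted p = 0.0639). Slc17a6, Nhlh2 and Trp73, of glutamatergic and Cajal-Retzius neurons, were too rare to test, with 3, 4, 3 and 5 counts, 6, 1, 4 and 1 counts, and 2, 1, 6 and 2 counts. Of the same list, and singled out after their values were seen, Reln had 0, 0, 4 and 3 counts and Lhx5 had 0, 0, 2 and 1. The list of 6 summed to 36.4 and 19.6 CPM in WT, against 53.2 and 41.7 CPM in the knockout-labelled pair.

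Transcripts of neurons in general were measured beside the members. All 11 tested pan-neuronal genes had a positive log2 fold change, with a median of 1.17, and 4 were called: Mapt, Dpysl3, Dcx and Rtn1. Mapt, which encodes the microtubule-binding protein tau, had 33 and 43 counts in WT, against 162 and 101 in the knockout-labelled pair (log2 fold change 1.83 ± 0.22, edgeR adjusted p = 8.85e-07). Dcx, of migrating young neurons, had 36 and 36 counts against 86 and 70 (1.17 ± 0.24, edgeR adjusted p = 0.00461). Without knockout-labelled replicate 1, Mapt alone of the 4 was called, with an adjusted p of 0.16 for Dcx, 0.172 for Dpysl3 and 0.199 for Rtn1, and without knockout-labelled replicate 2 Dcx (0.0899) and Rtn1 (0.102) were lost. Of the 15 pan-neuronal genes with any count, 11 had both knockout-labelled libraries above both WT libraries and 0 had both below (18.5% and 16.1% of all rows). The summed pan-neuronal counts were 541 and 549 in WT, against 1009 and 688 in the knockout-labelled pair, so these differed little between the WT libraries although the members did. Per 100 pan-neuronal counts, the members had 0 and 3.64 counts in WT, against 8.92 and 6.83 in the knockout-labelled pair. The part of neuronal transcripts in the member values was not tested. In bulk tissue, more cells of a type and more RNA per cell cannot be told apart.

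**Figure D4:**
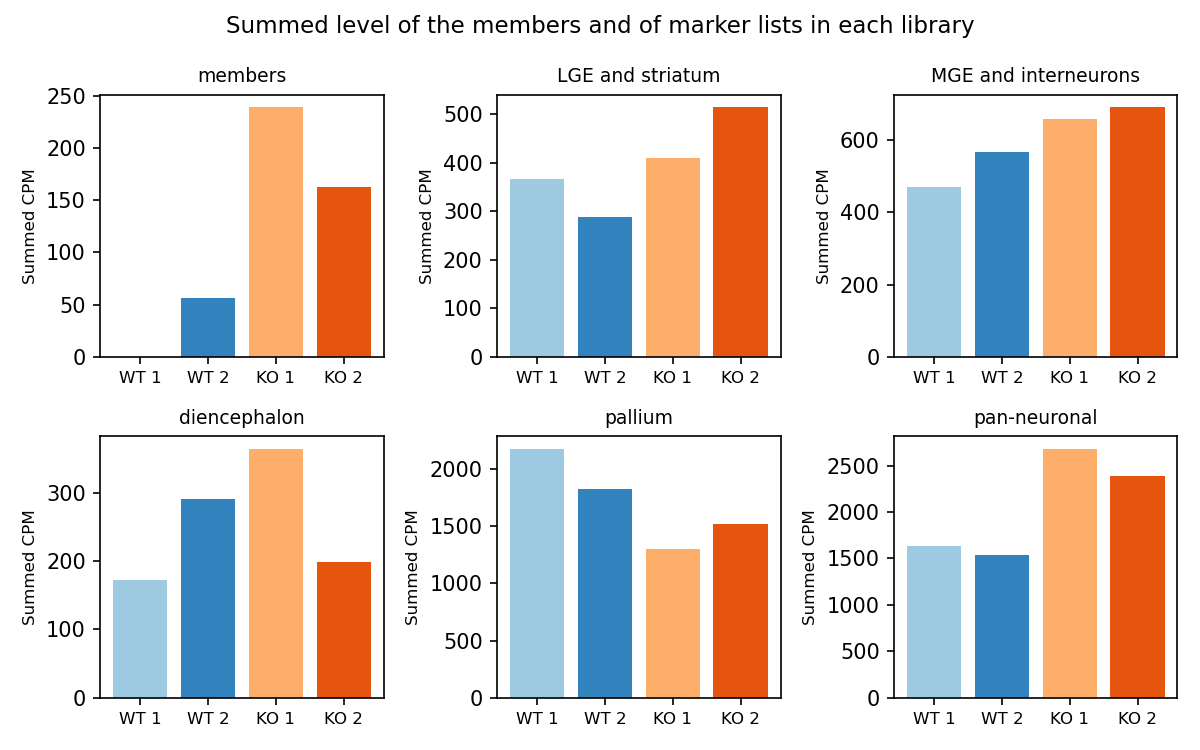
Summed level (CPM, vertical axes from 0) of the members and of 5 marker lists in each library; KO marks the libraries labelled Tut1 knockout. The members are at 0 in WT replicate 1, whereas the marker lists are present in both WT libraries, and the diencephalic sums overlap between groups.

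Markers of other cells moved with the groups too. Of 10 tested, 3 rose and 1 fell in the libraries labelled Tut1 knockout. Cx3cr1 and Csf1r, receptors of microglia, had 6 and 6 counts against 32 and 27 (log2 fold change 2.33 ± 0.42, edgeR adjusted p = 0.000755) and 16 and 20 against 58 and 34 (1.39 ± 0.30, edgeR adjusted p = 0.0062). Col1a2, a collagen of mesenchyme, had 3 and 7 against 27 and 16 (2.12 ± 0.47, edgeR adjusted p = 0.00742). Hbb-bh1, a globin of embryonic red cells, fell from 16 and 47 to 4 and 13 counts (-1.80 ± 0.46, edgeR adjusted p = 0.0279). The other globins of the list, singled out after their values were seen, did not pass: Hba-x had 15 and 24 counts against 43 and 36 (1.07 ± 0.31, edgeR adjusted p = 0.0563) and Hbb-y had 26 and 49 against 44 and 22 (-0.14 ± 0.30, edgeR adjusted p = 0.898). Without knockout-labelled replicate 1 none of the 4 called genes kept an adjusted p below 0.05 (adjusted p 0.0741, 0.328, 0.347 and 0.63, in the order Cx3cr1, Csf1r, Col1a2 and Hbb-bh1). Csf1r, Col1a2 and Hbb-bh1 were also lost without knockout-labelled replicate 2 (0.0616, 0.084 and 0.0899), Csf1r and Col1a2 without WT replicate 1 (0.0574 and 0.127), and Hbb-bh1 without WT replicate 2 (0.565, with a log2 fold change of -0.92). DESeq2 called 0 genes of this list, with an adjusted p of 0.282 for Csf1r and none for Cx3cr1, Col1a2 and Hbb-bh1, which its independent filter removed, and limma-voom called 5, without Col1a2 (adjusted p = 0.0872). Of the 13 genes listed, 10 had both knockout-labelled libraries above both WT libraries and 1 had both below (18.5% and 16.1% of all rows). The whole list summed to 376 and 693 CPM in WT, against 991 and 844 CPM in the knockout-labelled pair, none of its genes was at 0 in all libraries, and its part in the member values was not tested.

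Genes around the members were compared next. Of 28 analysed genes within 500 kb of the members, 16 were tested and none was called (edgeR, DESeq2 and limma-voom; 3 had an unadjusted edgeR p below 0.05). Their median log2 fold change was 0.10. The most abundant were Dync1i2 and Slc25a12, beside the Dlx1 and Dlx2 cluster, and Fip1l1, beside Gsx2. Dync1i2, a dynein chain, had 57 and 54 counts in WT, against 90 and 65 in the knockout-labelled pair (log2 fold change 0.53 ± 0.23, edgeR adjusted p = 0.249). Slc25a12, a mitochondrial carrier, had 27 and 33 against 58 and 37 (0.71 ± 0.27, edgeR adjusted p = 0.194), and Fip1l1, of the polyadenylation machinery, had 34 and 40 against 39 and 37 (0.10 ± 0.27, edgeR adjusted p = 0.919). Summed over all neighbours, the level was 1112 and 1019 CPM in WT, against 1260 and 1188 CPM in the knockout-labelled pair, so both of the latter lay above. Of the 25 neighbours with any count, 8 had both knockout-labelled libraries above both WT libraries and 4 had both below (18.5% and 16.1% of all rows).

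The genes most like the members over the 4 libraries were sought among 5457 tested genes with a mean count of at least 10, by the Euclidean distance between the shares of each gene's summed CPM that fell in each library. The members had 0% and 12.2% of their level in WT replicates 1 and 2 and 52.2% and 35.6% in knockout-labelled replicates 1 and 2. Dhrs3, a retinal reductase, lay nearest (distance 0.0662), with 4, 7, 43 and 23 counts. It was followed by Cbln2, a synapse organiser, with 1, 4, 22 and 14 counts (0.0714), and by Col1a2 (0.085), whose counts are given above. Slc1a2, a glutamate transporter, had 5, 6, 32 and 17 counts (0.10), and Pcdh9, an adhesion protein, had 1, 10, 25 and 14 (0.101). None of the 5 was at 0 in WT replicate 1, unlike the members, and 4 points per gene allow no more than this description.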

How the data were processed

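The authors deposited raw counts per gene (no normalization) obtained by Nanopore sequencing of poly(A) RNA; per the methods of the study, minimap2 placed the reads on Ensembl mouse transcripts and FLAIR handled the isoforms. Use of strand, treatment of multi-mapping reads and summing of isoforms are not given in the sources used here. Groups followed the sample labels (2 WT and 2 Tut1 knockout libraries), and 0 sample columns were left unused. GENCODE M21 on GRCm38 matched 16429 of 16449 identifiers.

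Counts were tested with edgeR 4.0.16 in R 4.3.3 (filterByExpr, minimum count 10 and minimum total 15, 5878 genes; TMM; quasi-likelihood F-test, two-sided, no covariate; Benjamini-Hochberg over all tested genes; threshold 0.05). CPM are counts over TMM-scaled totals of the tested genes. SE is the absolute log2 fold change over the square root of F. Ratios have exact conditional (Clopper-Pearson) and levels exact Poisson 95% intervals; a count of 0 was bounded at 3 counts. The procedure was tested on simulated data. Alternatives were median-of-ratios factors, total counts, no filter, 10 counts in 2 libraries, DESeq2 1.42.0, limma 3.58.1 (voom), the replicate number as a block and each library left out, for which the lone library of a group was assumed to vary like the other group. The filter of DESeq2 was first run at its default level. It was set to 0.05 after the results were seen, and the first run was kept as an added alternative.

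Members and lists were chosen with earlier results of these data known. The rule named all members, a fixed set of regional genes that included Tut1, Emx1, Lhx2, Nkx2-1, Lhx6, Slc32a1, Dlx6 and Isl1, up to 5 called genes per list by smallest p or, where none was called, the 3 with the highest mean count, and the 5 genes nearest in pattern. The motifs, the sequences printed and the count of rows whose groups do not overlap were chosen after the values were seen. A few genes that the rule names are not reported here.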

Additional observations from a re-analysis of the deposited data

How the results depend on the processing

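With 2 libraries per group and few counts, single libraries decided many values. The main edgeR fit called 121 genes, against 12 with DESeq2 (8 at its default filter level, added after the data were seen), 76 with the replicate number as a block (74 of them shared) and 3 to 108 with a library left out, fewest without knockout-labelled replicate 1. The replicate numbers share only a name (correlation of deviations -0.0614). Total counts alone gave 81.4% of calls higher, against 67.8%. The 2 subpallial and GABA genes called became 1 without a filter (Zeb2 lost, adjusted p = 0.0582), 1 with limma-voom (Pbx3 lost, 0.109), 1 with the block (Zeb2 lost, 0.0614), 0 with DESeq2 at either filter level, where Zeb2 had an adjusted p of 0.581 to 0.665 and Pbx3 had no adjusted p, and 0 to 1 with a library left out, the 1 being Nrxn3 without WT replicate 2 (adjusted p = 0.0252), while Pbx3 and Zeb2 were lost each time. The 1 pallial gene became 2 with total counts, 3 with 10 counts in 2 libraries, 2 with limma-voom and 0 to 2 with a library left out. The 4 pan-neuronal genes became 1 with DESeq2 at either level and 1 to 5 with a library left out. The block changed the count of no other list. Neighbours stayed at 0 in every setting. The cause of these shifts was not tested, beyond the fewer samples where a library was left out.

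The summed ratio of the members, 7.10, ranged from 3.69 without WT replicate 1 to 22.7 without WT replicate 2, the latter set against a floor of 3 counts. For the single members the ratio was 3.23 to 7.95 for Dlx1, 8.28 to 18.9 for Dlx1as and 1.82 to 4.47 for Gad2 with a library left out. The upper ends for Dlx1 and Gad2 rest on 3 counts in WT replicate 1, and all values for Dlx1as rest on a floor of 3 WT counts. The number of rows with the libraries labelled knockout above WT was 5 in every other setting and 7 without knockout-labelled replicate 2, where replicate 1 alone was compared. With a library left out, direction turned for 4 of the named genes that were not called, whose log2 fold change ranged from -0.84 to 0.15 for Lhx9, -0.83 to 0.21 for Tcf7l2, -1.41 to 1.15 for Otx2 and -0.052 to 0.26 for Fip1l1.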
